A study of Mus musculus with 6 samples.

Results

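Amino acid and neurotransmitter transporters were taken as the rows of the count table whose symbol starts with Slc1a, Slc3a, Slc6a, Slc7a, Slc15a, Slc36a, Slc38a or Slc43a and a digit. The rule found 50 of 18197 symbols, of which 47 had enough counts to be tested. Of the 50, 2 are not transporters by name: Slc7a6os and Slc36a3os lie on the strand opposite Slc7a6 and Slc36a3, and they are described separately. They are counted among the 50, and without them 48 members remain, 45 of them tested. The cells were cancer-associated fibroblasts, sorted by fluorescence from mammary tumours that the polyoma middle T oncogene (PyMT) had induced in C57BL/6 mice, with tumours taken at 16 to 20 weeks. All 6 libraries carry that oncogene. By label, 3 are WT and 3 are mPGES-1 KO, the latter named for microsomal prostaglandin E synthase-1, the enzyme that makes prostaglandin E2. They are written WT 1 to 3 and KO 1 to 3 below, by their labelled replicate numbers. Neither the promoter of the oncogene, the knockout allele nor the surface markers of the sort is stated in the sources used. The labels do not tie libraries to separate animals, so a p-value reflects only how these libraries spread, which may be technical.

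Total counts ran from 23013498 to 43648450 per library, and levels are given in CPM, counts scaled to a common library size by TMM. Only for ratios of the highest to the lowest library and for fold bounds were lower values set at a floor of 3 counts. That floor equals 0.0683 to 0.126 CPM, and levels, means and tests keep counts of 0. RNA of Ptges, the mPGES-1 gene, was at 26.3 ± 6.49 CPM in the WT libraries (SD, n = 3 per group). It was at 150.3 ± 31.1 CPM in the KO libraries (edgeR adjusted p = 0.0171), the reverse of a loss of Ptges RNA. The knockout allele is not stated, so counts of the whole gene cannot check the label. Every direction below is therefore one between libraries labelled WT and libraries labelled mPGES-1 KO. Of 16 fibroblast markers, 12 had a negative log2 fold change, and the list took 1.77 to 4.43% of counts in the WT and 0.977 to 2.60% in the KO libraries. Thy1, a fibroblast surface antigen, fell from 213.2 ± 54.8 to 22.95 ± 11.8 CPM (edgeR adjusted p = 0.0184), while the fibroblast receptor Pdgfra was at 9.32 ± 6.72 and 10.05 ± 4.46 CPM per kb of exon in the WT and KO libraries. The epithelial gene Epcam stood above Pdgfra, at 220.5 ± 67.1 and 2024 ± 280.3 CPM per kb. That order depends on the marker chosen. The fibroblast gene Dcn was at 740.0 ± 478.4 and 994.3 ± 482.5 CPM per kb. On average it lay above Epcam in the WT libraries and below it in the KO libraries. Luminal epithelial markers (22 of 23 listed genes found) took 1.49 to 2.12% of counts in the WT libraries and 4.796 to 5.80% in the KO libraries. Pericyte markers (16 of 16) took 0.372 to 1.00% and 0.0223 to 0.0483%, and leukocyte markers (13 of 14) 0.0536 to 0.115% and 0.162 to 0.278%. Among the 13 tested leukocyte markers, 3 had groups that did not overlap. Schwann and glial markers (6 of 7, 5 positive) took 0.00835 to 0.0118% and 0.0214 to 0.0262%, and basal epithelial markers (10 of 10) 0.0140 to 0.0239% and 0.0279 to 0.0310%. Of 8 tested basal markers, 6 had a positive and 2 a negative log2 fold change, and the groups overlapped in all 8. Adipocyte (6 of 7) and endothelial (10 of 10) shares were 0.391 and 0.397 times as large in the KO libraries on average, with overlap. Both lists split in sign, with 3 positive and 3 negative log2 fold changes in the first and 5 and 5 in the second. Their medians were -0.07 and -0.03, so these shares give no common direction of their genes. Mitochondrially encoded transcripts, a sign of RNA quality, took 0.569 to 2.31% and 2.06 to 2.81%, with a positive log2 fold change in 8 of 8 tested genes. In none of these lists was a found marker at 0 in all 3 libraries of a group. The Ptges and Thy1 calls were lost without WT 2 (0.0752 and 0.0802), KO 2 (0.0881 and 0.0926) or KO 3 (0.0658 and 0.0814). In bulk RNA, fewer cells of a type and less RNA per cell cannot be told apart.

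Cells take up amino acids through carriers that differ in what drives them. SLC1 and SLC38 carriers run on the sodium gradient, SLC36 and SLC15 carriers on protons, and SLC6 carriers on sodium and chloride, moving neurotransmitters, taurine, creatine and glycine. SLC7 light chains exchange one amino acid for another and reach the membrane only when bound to an SLC3 heavy chain, while the cationic branch of SLC7 works alone. In tumours these carriers are known for feeding glutamine, leucine, cystine and arginine to cancer and stromal cells.

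Of the 47 tested members, 1 rose and 0 fell in the KO libraries (edgeR quasi-likelihood test, Benjamini-Hochberg adjusted p under 0.05). The one that rose was Slc7a7, the light chain of the exchanger y+LAT1. A called share of 2.13% of members stands beside 2.76% of all 16543 genes tested (1.2% higher, 1.56% lower), which is a share near the background. Calls were lost when some single libraries were left out. Without KO 2 or KO 3 no gene of the table was called, and without WT 2 only 1 was (2574, 2975 and 2352 genes at an unadjusted p under 0.05 in edgeR). A fit with fewer libraries also has less power, so a lost call does not tie that call to the library left out. At an unadjusted p under 0.05, 4 members were higher and 3 lower, or 14.9% of members, against 19.1% of all genes (8.56% higher and 10.5% lower). At an adjusted p under 0.1 the members were Slc7a7, Slc6a14 and Slc7a10, 3 of 47 against 6.73% of all genes. DESeq2 called 2 higher and 2 lower (Slc7a7, Slc6a14, Slc6a9 and Slc7a10), against 12.7% of all genes, 6.02% higher and 6.63% lower, and gave 7 members no adjusted p. limma-voom called 4 higher and 2 lower (Slc7a7, Slc6a14, Slc38a1, Slc15a2, Slc1a5 and Slc6a9), against 11.8% of all genes, 5.91% higher and 5.85% lower. The 3 libraries of each group did not overlap in 2 members that were higher and 8 that were lower, or 21.3%, where 27.9% of all tested genes were so separated (12.2% higher and 15.7% lower). The median log2 fold change of the tested members was -0.31, against -0.04 for all tested genes. It moved to -0.13, -0.12 and -0.02 without WT 1, WT 2 and WT 3, where all genes stood at 0.02, 0.02 and 0.01. Over the 45 tested transporters by name the median was -0.34, with the same 1 call, and 2 were separated upwards and 7 downwards.

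The level of these genes was carried by a few of them in every library. Together the 50 members took 0.133 to 0.154% of counts in the WT libraries and 0.141 to 0.182% in the KO libraries. Slc3a2, the heavy chain 4F2hc (CD98), and Slc38a2, a sodium-coupled carrier of glutamine and other neutral amino acids, held between 39.8 and 55.5% of the members' counts. Per kb of exon, Slc3a2 led with 98.5 ± 22.8 CPM per kb in the WT libraries and 124.8 ± 27.6 in the KO libraries. Slc38a2 followed with 28.1 ± 5.51 and 36.99 ± 4.96 CPM per kb. Next in the mean over all libraries came Slc6a14 (1.94 ± 1.70 and 37.6 ± 20.7 CPM per kb), then Slc1a5 (25.9 ± 8.68 and 13.3 ± 2.38) and Slc43a3 (21.7 ± 12.8 and 11.7 ± 9.83). Slc3a2 was the highest member in all 6 libraries. Below it, Slc38a2 and Slc6a14 overlapped in mean ± SD in the KO libraries but not in the WT libraries, and Slc1a5 and Slc43a3 overlapped in both groups. Slc38a2 was second in KO 1 and KO 3 alone, behind Slc43a3 in WT 1, Slc1a5 in WT 2 and WT 3, and Slc6a14 in KO 2.

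**Figure D1:**
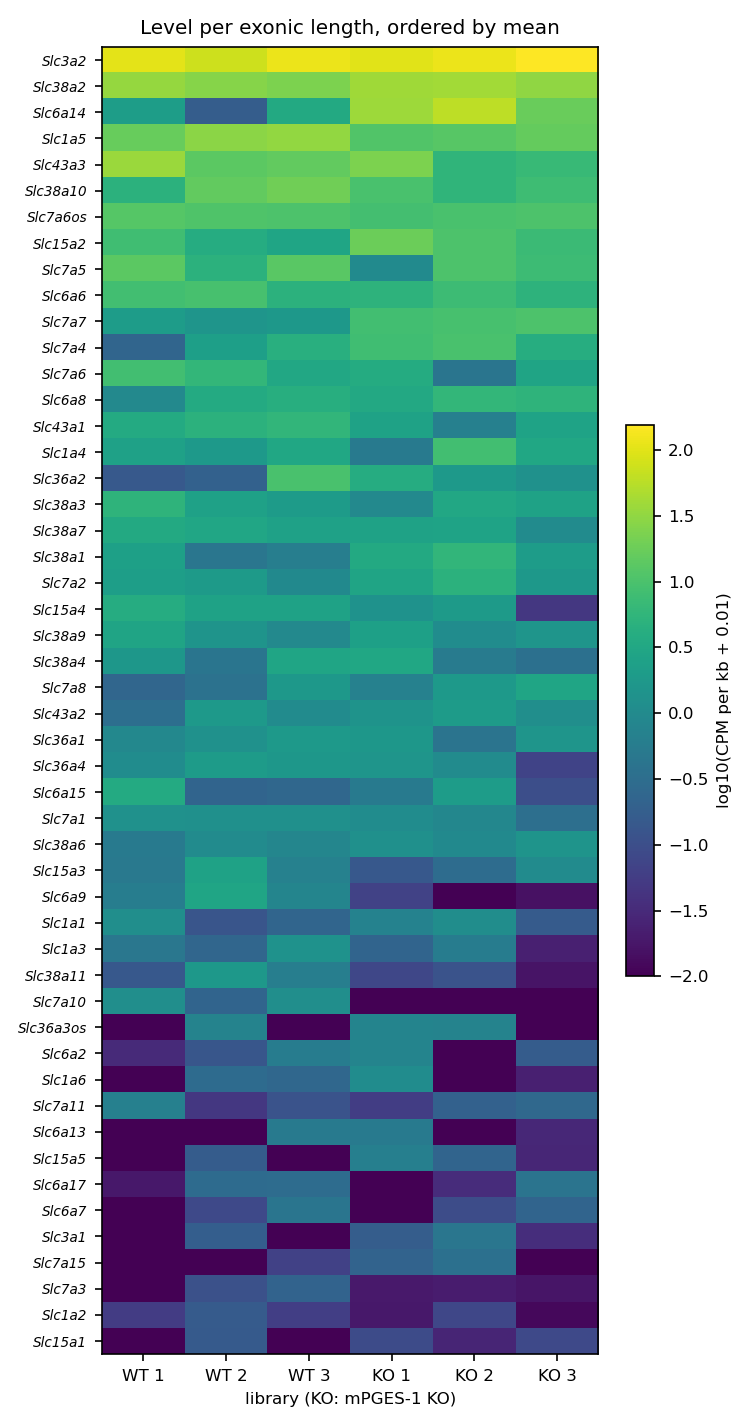
Level of the 50 members in each library, as log10 of CPM per kb of exonic length plus 0.01, ordered from top to bottom by the mean over all 6 libraries. Slc3a2 is highest in all 6 libraries, Slc6a14 averages 1.94 CPM per kb in the WT and 37.6 in the KO libraries, and Slc7a10 has no count in KO 1 to 3.

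Slc3a2 RNA did not pass the test. It stood at 369.7, 258 and 415 CPM in WT 1 to 3, and at 359, 413 and 548 CPM in KO 1 to 3. The groups overlapped, and the log2 fold change was 0.34 ± 0.29 (SE, adjusted p = 0.599). The other heavy chain, Slc3a1, which serves cystine uptake in kidney and gut, had 0 to 23 counts per library.

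Slc7a7 pairs with Slc3a2 to export cationic amino acids such as arginine in exchange for neutral ones and sodium, and it is known in kidney and intestinal epithelium and in macrophages. Its level was 6.90, 4.98 and 5.71 CPM in WT 1 to 3, and 27.6, 30.5 and 34.1 CPM in KO 1 to 3. All of KO 1 to 3 were far above all of WT 1 to 3, with little spread inside either group (5.86 ± 0.969 and 30.7 ± 3.25 CPM, SD, n = 3 each). The log2 fold change was 2.39 ± 0.42 (SE) and edgeR gave an adjusted p = 0.0313. The fold itself held when each library was left out in turn, at log2 2.31 to 2.55, but the call was lost without any of 5 libraries: WT 2 (adjusted p = 0.136) or 3 (0.0945), or KO 1 (0.0703), 2 (0.1245) or 3 (0.0989). Without WT 1 it was kept (0.0370). In GRCm38 the gene spans 54369442 to 54417780 of chromosome 14 on the minus strand, with 19 exonic blocks of 3315 bases together. Of these, 7.0% overlap Oxa1l on the other strand. The reads carry no strand, so reads of the shared bases cannot be assigned to either gene. Oxa1l was at 27.2 ± 3.19 and 35.2 ± 18.7 CPM, with overlapping groups and an adjusted p = 0.723.

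Marker lists of several other cell types also differed between the groups. Of 13 tested leukocyte markers, 12 had a positive log2 fold change and Cd14 alone was called (459 ± 149 and 1470 ± 176 CPM). That call was lost without any 1 library other than WT 1 (adjusted p from 0.0958 without KO 1 to 0.136 without WT 2). The summed level of the list was 504 to 1141 CPM in the WT libraries and 1564 to 2934 CPM in the KO libraries. Cd14 was its highest gene in every library, at 566.7, 289.1 and 521.6 CPM in WT 1 to 3 and 1529, 1273 and 1609 in KO 1 to 3. Lyz2, the next by mean, overlapped (141.6 to 388.1 and 207.7 to 830.6 CPM). Only 3 of the 13 tested markers had groups that did not overlap, so the sum does not describe the whole list. Ptprc, the pan-leukocyte antigen CD45, was at 8.15, 3.65 and 8.32 CPM and at 21.5, 15.9 and 59.8 CPM, while the macrophage genes Csf1r and Adgre1 overlapped between the groups (adjusted p = 0.659 and 0.690). Of 22 tested luminal markers, 7 were called higher and 0 lower, with summed levels of 14040 to 22010 and 46250 to 59050 CPM. The glial, basal and mitochondrial shares given above were higher on average in the same libraries. The part of none of these in the Slc7a7 difference was tested.

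**Figure D2:**
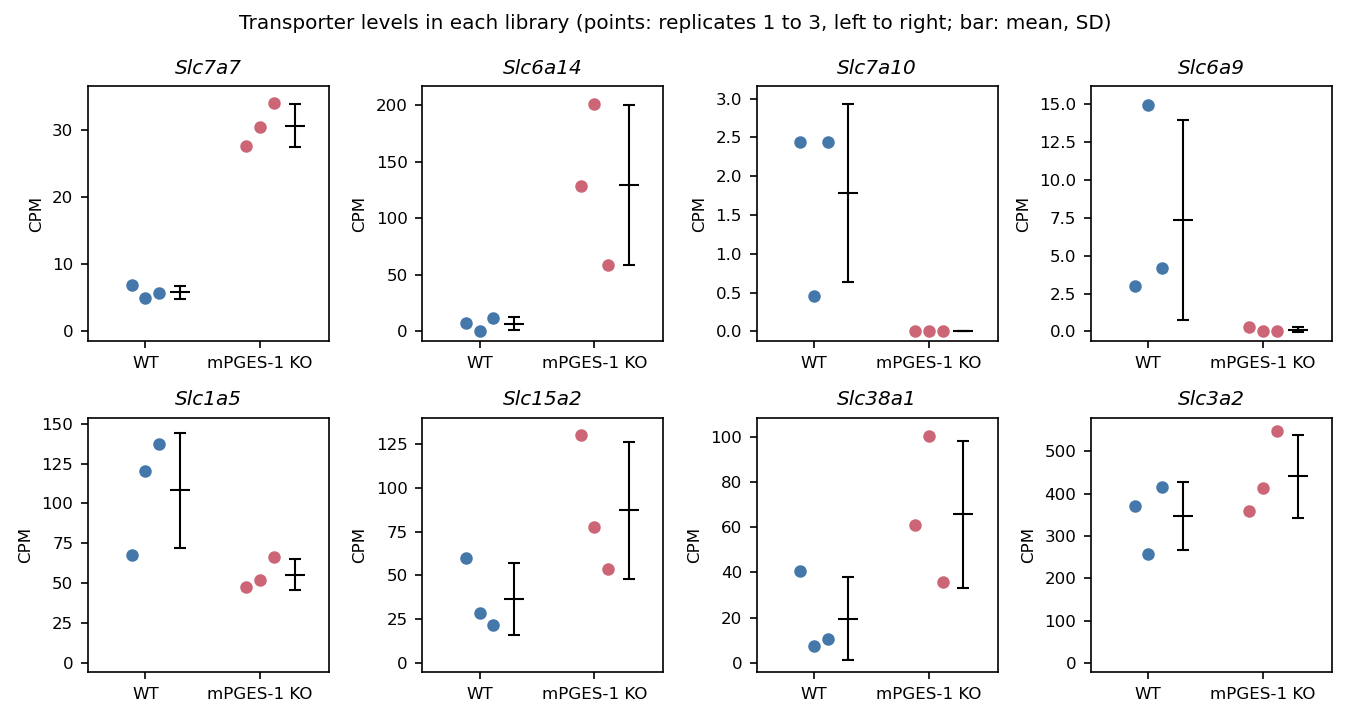
CPM of 8 members in each library, with points for replicates 1 to 3 from left to right and a bar for the mean with its SD. Slc7a7 is separated with a narrow spread in both groups, Slc6a14 is separated with a wide one, and Slc3a2 overlaps between the groups.

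The stretch upstream of Slc7a7 is shown beside that of Slc7a11 because these are the only member windows with a pair of matches to one motif; Slc7a7 was called and Slc7a11 was not. The motif is the core of the C/EBP-ATF response element, TGATGNAA on either strand, through which ATF4 is known to switch on genes when amino acids run short. The windows are from RefSeq on GRCm38.p6, on the strand of the gene, 250 bases before to 20 after the start site, with matches in capitals. The Slc7a7 window is chr14:54417925-54418194 (minus strand, the most upstream of 5 RefSeq starts, which lies outside the GENCODE span given above and in no GENCODE transcript), and the Slc7a11 window is chr3:50443594-50443863 (minus strand).
Slc7a7: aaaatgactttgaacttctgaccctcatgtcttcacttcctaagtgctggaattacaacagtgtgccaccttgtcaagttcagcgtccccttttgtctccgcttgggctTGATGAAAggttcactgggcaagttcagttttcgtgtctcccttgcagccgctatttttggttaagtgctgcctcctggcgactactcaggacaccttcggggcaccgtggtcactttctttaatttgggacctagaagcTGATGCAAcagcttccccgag
Slc7a11: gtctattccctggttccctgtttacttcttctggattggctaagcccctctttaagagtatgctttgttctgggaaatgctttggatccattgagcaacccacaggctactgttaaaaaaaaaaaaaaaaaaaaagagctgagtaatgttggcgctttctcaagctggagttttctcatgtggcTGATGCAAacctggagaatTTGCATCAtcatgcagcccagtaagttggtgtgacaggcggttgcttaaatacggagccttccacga

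In Slc7a7 the matches begin at -141 and -1 from the start site, and in Slc7a11 at -66 and -47. Slc7a11, the cystine-glutamate exchanger xCT and a textbook ATF4 target, was at 9.11, 0.528 and 1.48 CPM in WT 1 to 3, and at 0.658, 2.68 and 3.48 CPM in KO 1 to 3. WT 1 was the highest of the 6 and WT 2 the lowest. Its log2 fold change of -0.70 ± 1.35 (adjusted p = 0.845) turned to 1.21 without WT 1, so no direction can be given. Over the 300-base RefSeq windows, 50 windows matched 35 of the 50 members, and windows of one gene can overlap. TGATGNAA was in 5 of them (10%, in Slc7a7, Slc7a11, Slc1a4 and Slc15a5) and in 3.97% of all 32851 windows. At least 2 matches were in 2 member windows and in 23 of all windows (0.07%). The antioxidant response element core, TGACNNNGC, was in 9 member windows (18%, against 12.4% of all), the cAMP response element, TGACGTCA, in 1 (2%, Slc38a6, against 1.79%), and the AP-1 site, TGANTCA, in 7 (14%, against 7.81%). No matches of different motifs overlapped in the member windows. A match says only that these letters are present.

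The other light chains of Slc3a2 did not pass the test. Slc7a5 (LAT1), the main importer of leucine and other large neutral amino acids, was at 49.9, 18.4 and 47.8 CPM in WT 1 to 3, and at 3.77, 38.3 and 27.6 CPM in KO 1 to 3. The groups overlapped, with KO 1 lowest by far, and the log2 fold change was -0.74 ± 0.77 (adjusted p = 0.681). Slc7a6 (y+LAT2), the nearest relative of Slc7a7, was at 37.9, 27.5 and 14.99 CPM and at 17.4, 1.89 and 12.6 CPM, with overlap (log2 fold change -1.33 ± 0.78, adjusted p = 0.422). Slc7a8 (LAT2) overlapped as well, at 1.16 to 8.68 and 3.48 to 14.5 CPM. Slc7a10 (Asc-1), which exchanges glycine, alanine and serine and is known in adipocytes and brain, had 107, 18 and 89 counts in WT 1 to 3 and none in KO 1 to 3. With each of those libraries set at 3 counts it was at least 16.7-fold lower. It did not pass (adjusted p = 0.0977), its level of 1.78 ± 1.15 CPM in the WT libraries is low, and 17.9% of its exonic bases lie opposite Lrp3 (15.1 ± 9.48 and 3.13 ± 3.57 CPM), so its value is uncertain.

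Set side by side per kb of exon, the 6 light chains summed to 25.9, 13.1 and 20.9 CPM per kb in WT 1 to 3 and to 13.9, 21.9 and 23.6 in KO 1 to 3, so their total overlapped between the groups. The share of Slc7a7 in it did not overlap, while those of Slc7a5 and Slc7a6 did. Slc7a7 was 8.04, 11.5 and 8.24% of that total in the WT libraries and 59.98, 41.96 and 43.5% in the KO libraries. Slc7a5 was 52.0, 37.9 and 61.7% in the first group and 7.32, 47.2 and 31.5% in the second. Slc7a6 was 32.1, 45.9 and 15.7% in the first group and 27.4, 1.88 and 11.7% in the second. The ratio of Slc7a7 to Slc7a5 per kb was 0.155, 0.302 and 0.134 in the WT libraries and 8.20, 0.890 and 1.38 in the KO libraries. These shares rest on the same Slc7a7 counts as its test and are given as a description. Slc3a2 exceeded the summed light chains 4.05 to 5.63 times in the WT libraries and 5.35 to 7.33 times in the KO libraries, per kb.

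**Figure D3:**
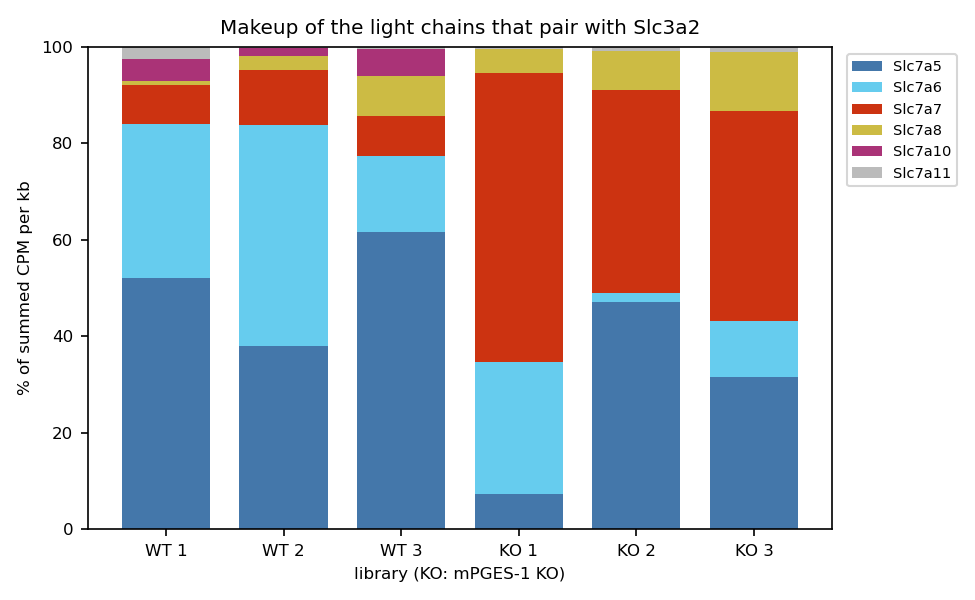
Share of each light chain in the summed level (CPM per kb of exon) of the 6 light chains that pair with Slc3a2, one bar per library. Slc7a7 makes up 8.04 to 11.5% in the WT and 41.96 to 59.98% in the KO libraries.

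Glutamine enters cells mainly through Slc1a5 (ASCT2), Slc38a1 and Slc38a2, and none of these passed the test. Slc1a5 was at 67.6, 120.1 and 137 CPM in WT 1 to 3, and at 47.5, 52.1 and 66.5 CPM in KO 1 to 3. The groups did not overlap, though WT 1 lay just above KO 3 (log2 fold change -0.97 ± 0.33, adjusted p = 0.166, and 0.0359 in limma-voom). Slc38a1 was at 40.7, 7.52 and 10.4 CPM and at 60.8, 100.3 and 35.9 CPM, where WT 1 reached into the other group. Its log2 fold change was 1.75 ± 0.70 (adjusted p = 0.230), and without WT 1 it was called at 2.91 (0.0460). Slc38a2 was at 300.2, 240.3 and 204 CPM and at 342, 361 and 278 CPM, with 1 library of each group in the range of the other (log2 fold change 0.40 ± 0.26, adjusted p = 0.473). Within a library, the ratio of Slc38a1 to Slc1a5 per kb was 0.146, 0.0152 and 0.0184 in the WT libraries and 0.310, 0.466 and 0.131 in the KO libraries.

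The rest of the SLC1 and SLC38 families showed no call. Slc38a10, was at 31.4, 99.3 and 124.2 CPM in WT 1 to 3 and 63.5, 35.3 and 50.4 CPM in KO 1 to 3, with overlap (log2 fold change -0.77 ± 0.50, adjusted p = 0.476). Slc38a3, a glutamine carrier known in liver, and Slc38a7, a lysosomal glutamine exporter, overlapped too, with log2 fold changes of -0.55 ± 0.64 and -0.51 ± 0.60. Slc1a4 (ASCT1), a serine and alanine carrier, spread from 2.01 to 33.4 CPM inside the KO group alone. The glutamate carriers Slc1a1, Slc1a2, Slc1a3 and Slc1a6 were below 12 CPM in every library. Among SLC38 genes, the lysosomal arginine sensor Slc38a9 was at 15.6 to 47.2 and 18.3 to 40.8 CPM (log2 fold change -0.05 ± 0.51). Slc38a11 was at 0.569, 7.40 and 2.64 CPM and at 0.293, 0.461 and 0.0283 CPM, separated but low (adjusted p = 0.263). Slc38a1, Slc38a2 and Slc38a4 lie in a row on chromosome 15, from 96571418 to 97055956 in GRCm38, all on the minus strand. Their log2 fold changes were 1.75, 0.40 and -0.31, of which that of Slc38a4 turned positive without WT 3, KO 2 or KO 3. Slc1a1, Slc1a4, Slc1a6 and Slc38a9 also took either sign when libraries were left out, so no direction is given for them.

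Slc6a14 (ATB0,+), a broad sodium- and chloride-driven importer of neutral and cationic amino acids known in mammary and other epithelia, had the largest positive log2 fold change of the tested members. It was at 7.26, 0.553 and 12.2 CPM in WT 1 to 3, and at 128.8, 200.5 and 58.5 CPM in KO 1 to 3. The groups were well apart, but each spread widely (6.66 ± 5.83 and 129 ± 71.0 CPM, SD, n = 3 each). The log2 fold change was 4.28 ± 1.02 (SE) and did not pass in edgeR (adjusted p = 0.0727), while DESeq2 and limma-voom called it (adjusted p = 5.20e-06 and 0.0243). Over 13 alternatives the fold change ran from 3.80 to 6.23 and the adjusted p up to 0.2099. The gene lies on the plus strand of chromosome X from 21714896 to 21742355 in GRCm38, in 14 exonic blocks of 3434 bases that no annotated gene shares. Luminal markers together took a 2.80 times larger share of counts in the KO libraries, and Krt8, a luminal keratin, was at 493 ± 83.9 and 2754 ± 642 CPM. The part of luminal RNA in the Slc6a14 difference was not tested. Its RefSeq promoter, chrX:21714650-21714919 (plus strand, 250 bases before to 20 after the start), is shown for the 1 match to the AP-1 site, TGANTCA, in capitals, which begins at -82.
Slc6a14: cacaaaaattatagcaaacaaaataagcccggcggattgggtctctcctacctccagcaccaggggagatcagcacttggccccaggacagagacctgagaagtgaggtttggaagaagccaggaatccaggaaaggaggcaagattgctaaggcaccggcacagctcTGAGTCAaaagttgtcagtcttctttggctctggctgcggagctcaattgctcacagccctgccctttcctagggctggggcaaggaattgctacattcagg

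Among the other SLC6 carriers, Slc6a9 (GlyT1), the glycine transporter of glia and other cells, was at 3.01, 14.99 and 4.17 CPM in WT 1 to 3. KO 1 to 3 had 8, 0 and 1 counts, or 0.293, 0 and 0.0283 CPM. The groups did not overlap, and the log2 fold change of -6.07 ± 1.75 did not pass in edgeR (adjusted p = 0.111), though it did in DESeq2 (0.000264) and limma-voom (0.0482). Of its exonic bases, 30.2% are opposite other genes, among them B4galt2, which was itself at 45.2 ± 28.4 and 2.78 ± 2.69 CPM, so the value of Slc6a9 is uncertain. Of 16 pericyte markers, 11 were called lower and 0 higher in the same libraries, with summed levels of 3857 to 9417 CPM in the WT libraries and 215 to 509 CPM in the KO libraries. The glial share, by contrast, was 2.39 times as large in the KO libraries. The adipocyte share was 0.391 times as large, with overlap, but its genes had no common direction. Pparg, an adipocyte regulator, was at 30.9 ± 13.7 and 12.2 ± 0.194 CPM (adjusted p = 0.159). Fabp4 (457 ± 175 and 171 ± 126 CPM) and Cfd were also lower on average. Adipoq, Plin1 and Cidec were higher on average, with overlapping groups (log2 fold changes 0.83, 1.59 and 0.35). The part of these lists in the Slc6a9, Slc7a10 and Slc38a11 values was not tested. Slc6a6 (TauT), the taurine importer, overlapped between the groups at 40.9 to 78.0 and 42.6 to 63.6 CPM (log2 fold change -0.34 ± 0.35, adjusted p = 0.673). Slc6a8, the creatine importer, overlapped at 4.87 to 21.9 and 17.4 to 30.9 CPM. The noradrenaline transporter Slc6a2 was the only monoamine carrier in the table, at 0.137 to 3.57 CPM and 0 to 4.87 CPM, and its log2 fold change of 0.39 ± 1.95 turned to -0.10 without WT 1 and -1.55 without KO 1. Slc6a17 and Slc6a7, carriers known from neurons, spread from 0 to 4.11 and from 0 to 1.43 CPM, with overlap.

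Of the cationic carriers that import arginine and lysine, Slc7a1 (CAT1) was at 15.4, 14.6 and 14.7 CPM in WT 1 to 3 and at 12.5, 9.81 and 3.74 CPM in KO 1 to 3. The WT libraries were nearly equal and lay above all 3 others, but the log2 fold change of -0.78 ± 0.60 did not pass (adjusted p = 0.556). Slc7a2 (CAT2) was at 8.90 to 20.1 and 15.4 to 45.8 CPM (log2 fold change 0.89 ± 0.54). Slc7a4, a relative of these carriers, was at 0.934, 9.66 and 18.5 CPM and at 33.1, 41.0 and 17.2 CPM, with 1 library of each group inside the other's range (log2 fold change 1.65 ± 0.91, adjusted p = 0.391).

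The proton-driven and SLC43 carriers held no call either. Slc15a2 (PEPT2), which takes up di- and tripeptides and is known in mammary epithelium and kidney, was at 59.96, 28.5 and 21.4 CPM in WT 1 to 3. In KO 1 to 3 it was at 130.3, 77.4 and 53.5 CPM, so only WT 1 reached into the other group (log2 fold change 1.25 ± 0.49, adjusted p = 0.221, and 0.0383 in limma-voom). Slc15a4, a histidine and peptide carrier of endolysosomes, was at 20.7, 13.6 and 13.6 CPM and at 7.10, 10.2 and 0.198 CPM, lower in all 3 (log2 fold change -1.45 ± 1.11, adjusted p = 0.5496). Slc43a1 (LAT3), a leucine carrier, was at 21.1, 28.1 and 32.3 CPM and at 14.96, 3.81 and 15.6 CPM, also without overlap (log2 fold change -1.25 ± 0.59, adjusted p = 0.306). Its neighbour on chromosome 2, Slc43a3, was at 59.9 to 163 and 24.4 to 102.9 CPM with overlap (log2 fold change -0.89 ± 0.64, adjusted p = 0.522). Slc43a2 (LAT4), the other leucine carrier of that family, was at 3.14 to 18.0 and 11.7 to 19.9 CPM (log2 fold change 0.54 ± 0.69). Slc15a3, a relative of Slc15a4 known in macrophages, was at 2.71 to 14.1 and 0.732 to 5.72 CPM (log2 fold change -1.35 ± 1.14). Of its exonic bases, 28.1% lie opposite Tmem132a (22.9 ± 15.5 and 4.15 ± 2.54 CPM), so the value of Slc15a3 is uncertain. Slc15a1 (PEPT1), the intestinal peptide carrier, had at most 28 counts in a library. Slc36a1 (PAT1) and Slc36a4 (PAT4), both found on lysosomes and other membranes, overlapped between the groups (log2 fold changes -0.17 ± 0.79 and -0.82 ± 1.04). Slc36a2 (PAT2) was at 0.455, 0.629 and 31.1 CPM in WT 1 to 3 and at 13.0, 5.70 and 4.25 CPM in KO 1 to 3. Without WT 3 its log2 fold change went from -0.49 to 3.80, so no direction can be given.

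**Figure D4:**
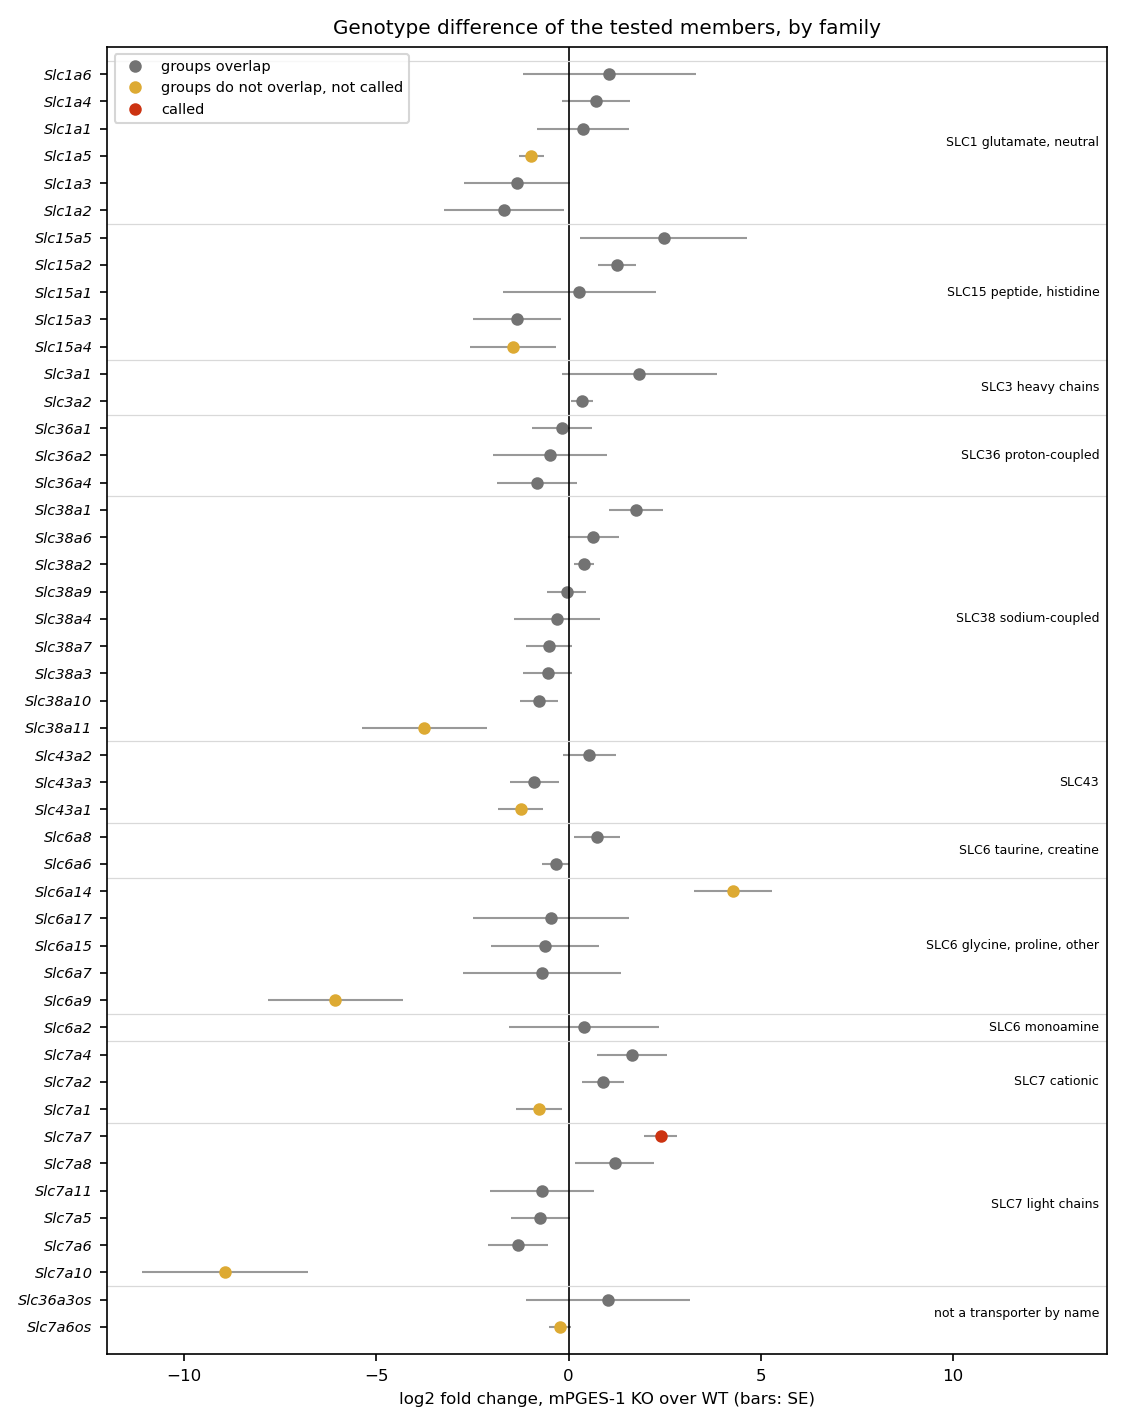
Log2 fold change (KO over WT) of the 47 tested members with its SE, grouped by family. Red marks the 1 call, Slc7a7, yellow the 9 members whose groups do not overlap but were not called, and the point of Slc7a10 is a fitted value that depends on the prior count, since 1 group holds no count.

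Of the 50 members, 3 were too low to be tested: Slc6a13, Slc7a3 and Slc7a15, each with at most 55 counts in any library. Slc7a6os, which encodes a factor for RNA polymerase II import, was among the steadiest members at 47.4 ± 4.15 and 40.5 ± 3.48 CPM. All 3 WT libraries lay above all 3 others, by a gap of 43.8 to 43.5 CPM, with an adjusted p = 0.731. Slc36a3os had at most 15 counts in any library.

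Spread inside a group was wide for many members. The highest library of a group exceeded the lowest over 10-fold in 10 of 47 tested members among the WT libraries and in 12 of 47 among the KO libraries, counting values below the floor as 3 counts. These are 21.3% and 25.5%, beside 17.9% and 17.4% of all tested genes. The median ratio of highest to lowest was 4.49 and 4.08 for members and 2.42 and 2.39 for all genes. Slc6a15, a neutral amino acid carrier known in brain, shows it in both groups, at 28.0, 1.64 and 1.87 CPM and at 3.95, 16.1 and 0.708 CPM. In contrast, Slc3a2, Slc38a2, Slc7a7 and Slc7a6os stayed within 1.61-fold inside each group.

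Of 6 lists of genes that work beside these carriers, 4 held 1 called gene each and 2 held none, to be read beside the 2.76% of all genes. Of 29 tested amino acid response (ATF4) genes, 0 rose and 1 fell (3.45%): Eif4ebp1, an inhibitor of translation initiation, went from 242.5 ± 10.4 to 101.0 ± 23.8 CPM (adjusted p = 0.04997). That call was lost without any 1 of the 6 libraries (adjusted p from 0.0586 without WT 1 to 0.2024 without WT 2), and with all 6 under DESeq2 size factors (0.0532) or no filter (0.0545). Pck2 (105 ± 9.79 and 37.9 ± 12.1 CPM) and Vldlr (13.5 ± 5.47 and 49.3 ± 17.7 CPM) did not pass, and the median log2 fold change of the list was 0.20. Of 23 genes of amino acid sensing by mTORC1, none was called and 2 were higher at an unadjusted p under 0.05 in edgeR. The nearest was Fnip1, a partner of folliculin, at 22.6 ± 7.74 and 81.4 ± 39.7 CPM (adjusted p = 0.0757), and the list median was -0.11.

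Of 15 genes of arginine, polyamine and tryptophan metabolism, 1 rose and 0 fell (6.67%), with 6 higher and 1 lower at an unadjusted p under 0.05. It was Arg2, the mitochondrial arginase, at 3.51, 5.96 and 4.34 CPM in WT 1 to 3 and 27.0, 69.8 and 22.9 CPM in KO 1 to 3 (log2 fold change 3.11 ± 0.57, adjusted p = 0.0372). Its call, too, was lost without any 1 library (0.0632 without KO 1 to 0.165 without KO 2). Azin1 and Ido1 did not pass (adjusted p = 0.0914 and 0.117), and the median was 0.91. Of 11 genes of glutamine, glutamate and proline metabolism, 0 were higher and 2 lower at an unadjusted p under 0.05, and Got2, the mitochondrial aspartate aminotransferase, was the 1 called (9.09%), falling from 49.6 ± 13.3 to 14.7 ± 1.88 CPM (adjusted p = 0.0484), with a median of -0.17. Its call was lost without any 1 library (0.0732 without WT 3 to 0.218 without WT 2), and with all 6 under DESeq2 size factors (0.0526), library size (0.0520) or no filter (0.0542). Of 16 glutathione genes, 11 had a positive log2 fold change, and 7 were higher and 2 lower at an unadjusted p under 0.05. The 1 called (6.25%) was Ggt5, which cleaves glutathione outside the cell, falling from 66.4 ± 20.98 to 5.78 ± 4.25 CPM (adjusted p = 0.0296), while Keap1 (67.8 ± 11.2 and 17.2 ± 8.07 CPM) and Gsr (68.1 ± 20.3 and 200.0 ± 72.5 CPM) did not pass. The Ggt5 call was lost without WT 2 (0.123), WT 3 (0.0632), KO 2 (0.1285) or KO 3 (0.0930), and the glutathione median was 0.67. Of 18 tested amino acid carriers from other families and their partners, none was called in edgeR, with 1 higher and 1 lower at an unadjusted p under 0.05. The mitochondrial glutamate carrier Slc25a22 was at 35.9 ± 2.45 and 10.7 ± 4.18 CPM (adjusted p = 0.0821). The marker and mitochondrial shares given above differed between these same libraries, and their part in these calls was not tested.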

How the data were processed

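RNA-seq was analysed from 6 libraries of sorted tumour fibroblasts. Per the labels' protocols, cDNA came from a template-switching kit for low input with 16 PCR cycles and was read as single reads of 75 cycles, which keeps no strand and no molecular identifiers, so floors cover counting error only. The deposited values are whole-number counts per gene symbol, with no normalization stated by the authors. FastQC 0.11.5, STAR and mm10 appear in the submitters' processing notes; the counting program and annotation are not named in the sources used.

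Counts were tested with edgeR 4.0.16 in R 4.3.3 (filterByExpr, TMM, robust quasi-likelihood fit, two-sided, no covariate), with Benjamini-Hochberg adjustment over 16543 genes. The SE is the absolute log2 fold change over the square root of F, and the common biological coefficient of variation was 0.818. In simulated counts over 16543 genes for this comparison, changes were placed only in genes with an expected mean above 50 counts. Lower genes are therefore not covered. Changes of log2 fold 1 were found in 0 of 50 genes, of 2 in 8, of 4 in 26 and of 6 in 36, beside 5 false calls. Exon lengths and positions come from GENCODE M21 (GRCm38, as mm10), which held all 50 members, 14 of them sharing exonic bases with another gene.

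Alternatives were DESeq2 size factors, library size, no filter, at least 1 CPM in at least 3 libraries, DESeq2 1.42.0, limma-voom (limma 3.58.1), a block for the replicate number, leaving out 1 library at a time, and an adjusted p under 0.1. Named members are those called and, of the rest with groups apart and a mean of at least 5 CPM, up to 12 with the largest fold changes. Fewer than 12 met that rule, so all that met it were named. Also named are the highest per kb of each role group if above 1 CPM, and members that are no transporter by name. Slc3a2, Slc7a5, Slc7a11, Slc1a5, Slc38a1, Slc38a2, Slc7a1 and Slc6a6 were always named. In each pathway list the called genes and, below 3, those with the smallest adjusted p up to 3 could be named, with Ptges and cell type markers as checks. Other genes were named after their values were seen. The members and lists were chosen with earlier results of these data known.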

Additional observations from a re-analysis of the deposited data

How the results depend on the processing

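The number of calls changed with the library left out, where power is also lower, and with the tool. Left out in turn, the libraries gave 0 to 568 called genes, against 456 with all 6, with 0 without KO 2 or 3 and 1 without WT 2 (2574, 2975 and 2352 genes at an unadjusted p under 0.05 in edgeR). Members called higher ran from 0 to 2 in these fits, and members called lower stayed at 0. DESeq2 called 2093 genes, limma-voom 1944, and an adjusted p under 0.1 gave 1113. For members these settings gave 2, 4 and 2 higher and 2, 2 and 1 lower. The log2 fold change of Slc7a7 ran from 2.31 to 2.55 over the left-out libraries. With the replicate number as a block it was 2.40 (adjusted p = 0.126) and no gene was called by edgeR (2716 at an unadjusted p under 0.05, 8 of them members). Libraries with the same number did not deviate together (correlations -0.063, 0.028 and -0.017), so the block pairs only numbers. Of the 47 tested members, 34 kept their sign in every alternative that gave a value, and 13 did not. In limma-voom and with the block, in that order, Slc36a2 turned to 1.73 and 2.36, Slc6a2 to -2.24 and -1.44, Slc7a11 to 1.09 and 0.34, Slc1a6 to -2.33 and -2.77, and Slc38a9 to 0.10 and 0.01. Slc6a15 turned to 1.10 in limma-voom and Slc1a4 to -0.01 with the block. Over the left-out libraries Slc36a2 ran from -1.10 to 3.80, Slc6a2 from -1.55 to 2.12, Slc7a11 from -1.16 to 1.21, Slc1a6 from -4.31 to 1.66, Slc38a9 from -0.41 to 0.50, Slc6a15 from -2.11 to 2.02 and Slc1a4 from -0.43 to 1.23. Those of Slc15a1 ran from -0.31 to 6.29, Slc1a1 from -0.17 to 1.98, Slc36a1 from -0.46 to 0.27, Slc38a4 from -1.91 to 0.38, Slc6a17 from -3.96 to 0.14 and Slc6a7 from -1.91 to 1.43. The macrophage gene Csf1r turned to 0.15 in limma-voom and ran from -1.24 to 0.69. With single libraries left out, Oxa1l ran from -0.11 to 0.66 and Pdgfra from -0.30 to 0.78. Scaling by DESeq2 size factors or library size left 2 members separated upwards and 6 or 7 downwards. Depth limits the lowest members, where 3 counts stand for up to 0.126 CPM.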
